A study of Mus musculus with 27 samples.

Results

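Neuregulin 1 and the ErbB receptors were followed through mouse hearts with deletions in the locus of the long non-coding RNA Hand2as and their controls. Hand2as is transcribed next to the gene of the cardiac transcription factor Hand2. The set held 6 genes chosen by name: the ligands Nrg1 and Hbegf and the receptors Egfr, Erbb2, Erbb3 and Erbb4. All 6 were listed among the 24025 genes of the bulk expression table and among the 19010 genes of the single-cell table. Bulk polyA RNA of C57BL/6 mice came from E11.5 hearts, E16.5 ventricles (embryonic days) and cardiomyocytes at 8 weeks. Allele F removed the full length of Hand2as and allele D its 3' distal part. At E11.5 and E16.5 each, 3 libraries carried F on both copies (F/F) and 3 carried F on a single copy (F/+), so every embryonic bulk control lacked a copy of the locus. At 8 weeks there were 6 D/D, 2 D/+ and 5 wild-type (+/+) libraries. A further 2 libraries held single cells of E11.5 hearts, labelled +/+ and F/F, each pooled from 6 hearts after sorting for living cells. The labels do not state that the bulk replicates came from separate animals, so p-values measure the spread between these libraries, which may be technical.

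Neuregulin signalling runs between neighbouring cell types of the heart. Nrg1 is an EGF-like ligand that binds Erbb3 and Erbb4, and Hbegf, the heparin-binding EGF-like growth factor, binds Egfr and Erbb4. Erbb2 has no known ligand of its own and acts as the dimerisation partner of the other receptors, while Erbb3 has little kinase activity and depends on such a partner. In the embryonic heart, neuregulin from the endocardium, the endothelial lining of the chambers, is known to act on Erbb2 and Erbb4 in cardiomyocytes during trabeculation, the formation of the inner muscle ridges, and Erbb3 is known for its part in the mesenchyme of the valve cushions.

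The promoters of Erbb2 and Erbb4 are shown because the receptor pair of cardiac neuregulin signalling was highest in cardiac muscle classes of the single cells. They run from 250 bases before to 50 bases after the start site in RefSeq's table for GRCm38.p6, at chr11:98412234-98412533 on the + strand for Erbb2 and chr1:69108010-69108309 on the - strand for Erbb4. Capitals mark the E-box letters CANNTG, the core to which basic helix-loop-helix factors such as Hand2 bind as a family. The motif reads the same on both strands.
Erbb2: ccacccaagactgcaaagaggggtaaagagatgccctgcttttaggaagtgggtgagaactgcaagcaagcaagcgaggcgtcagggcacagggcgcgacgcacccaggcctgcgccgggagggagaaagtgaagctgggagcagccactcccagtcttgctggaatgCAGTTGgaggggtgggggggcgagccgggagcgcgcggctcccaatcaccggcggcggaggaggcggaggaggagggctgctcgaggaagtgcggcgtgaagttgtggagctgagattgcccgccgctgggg
Erbb4: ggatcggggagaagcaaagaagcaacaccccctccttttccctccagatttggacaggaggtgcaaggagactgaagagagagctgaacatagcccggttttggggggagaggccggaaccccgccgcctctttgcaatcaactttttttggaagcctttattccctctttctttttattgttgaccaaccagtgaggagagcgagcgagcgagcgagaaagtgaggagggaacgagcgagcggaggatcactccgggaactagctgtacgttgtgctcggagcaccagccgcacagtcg
The Erbb2 window held 1 CANNTG and the Erbb4 window 0, while 72.3% of the 32851 promoters of the table held at least 1. The table had 21 CpG in the Erbb2 window and 17 in that of Erbb4, and the median over all promoters was 7. Of the other members, Egfr (chr11:16751953-16752252, + strand) had 15 CpG and 0 CANNTG. In the RefSeq annotation of GRCm38.p6, Erbb4 spans chromosome 1 from 68031884 to 69108576, Nrg1 chromosome 8 from 31807452 to 32891609, Erbb3 chromosome 10 from 128567523 to 128589635, Egfr chromosome 11 from 16752203 to 16913907 and Erbb2 chromosome 11 from 98412484 to 98437716. The Erbb4 window lies inside the span of its gene, short of the 5' end at 69108576. For Erbb4, 5 transcripts are listed, so its counts hold for the start site used and were not made for any other.

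Bulk values were FPKM (fragments per length of transcript and per total of mapped fragments) whose read depth is unknown. The single-cell libraries held 2563 barcodes with 38302758 UMIs (unique molecular identifiers, each standing for a captured transcript) labelled +/+ and 3469 barcodes with 51432290 UMIs labelled F/F. The 2 libraries shared 18 barcode sequences. The deleted transcript, listed in the single-cell table as Gm28063, had 1 UMI in the cells kept from the library labelled +/+ and 9 in those from the library labelled F/F, so its level did not check the labels, and whether these 3' tags lie inside the deleted part is not given in the sources used here. No row of that name was used in the bulk table. Haemoglobin took 10.4% to 29.7% of the summed FPKM at E11.5 and at most 2.42% at E16.5. All 3 F/F libraries at E16.5 but only 1 of the 3 F/+ libraries had Y-linked FPKM above 1, and at 8 weeks +/+ replicate 5 and D/D replicate 6 stood apart from the other 11 libraries, with 2745 of 10249 genes not overlapping. The part of these differences in the results was not tested beyond the values given with each result.

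In the E11.5 single cells, Nrg1 was found mainly in endothelial-like and mesenchymal-like cells. Cells were clustered, clusters were named from marker genes, and the UMIs of a gene in a class were scaled to the class total as CPM, which sets classes of different depth on the same scale. Nrg1 reached 35.5 CPM (95% Poisson interval 28.2 to 44.0, 82 UMIs) in the 186 endothelial-like cells labelled +/+ and 36.8 CPM (30.6 to 43.8, 125 UMIs) in the 273 labelled F/F. In the mesenchymal-like cells it was at 22.3 CPM (18.8 to 26.3) for +/+ and 19.8 CPM (16.7 to 23.3) for F/F, below the endothelial-like level in both. A cluster that stayed unnamed had 16.3 CPM (8.43 to 28.5, 12 UMIs) for +/+ and 8.77 CPM (3.22 to 19.1, 6 UMIs) for F/F. These intervals, like all those for single cells here, cover counting error within 1 library only. Endothelial-like and mesenchymal-like cells together held most Nrg1 UMIs, 32.5% and 55.6% in the library labelled +/+ and 41.3% and 48.2% in the library labelled F/F. The cardiomyocyte-like cells were close to empty of it, with 4 UMIs in 479 cells (0.527 CPM) labelled +/+ and 9 UMIs in 786 cells (0.778 CPM) labelled F/F. Erythroid-like cells, which should lack the ligand and stand for free RNA, had 0.289 CPM and 0.274 CPM.

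Within those classes Nrg1 differed between clusters. Both endothelial-like clusters carried it, at 40.0 CPM (33.0 to 48.2) in the cluster led by Stmn2, Pi16 and Krt79 and 32.6 CPM (26.4 to 39.8) in the cluster led by Emcn and Gja4, both libraries summed. The mesenchymal-like cluster led by Inhba, L1cam and Meox1 had 27.8 CPM (23.8 to 32.2) and the one led by Msx1 and Epha3 15.1 CPM (12.4 to 18.2). The intervals of the endothelial-like clusters overlapped, whereas those of the mesenchymal-like clusters did not. Nrg1, Hbegf and Erbb3 were among the genes used for clustering, so differences between clusters in these genes may be partly built in. After random thinning of cells to 5000 UMIs, 13.3% (95% Clopper-Pearson interval 8.62 to 19.3) of endothelial-like cells labelled +/+ and 12.3% (8.48 to 16.9) of those labelled F/F had a Nrg1 UMI, against 0.114% and 0.170% of erythroid-like cells. Without thinning the endothelial-like shares were 26.9% and 21.6%, at median depths of 11637 and 11783 UMIs against 10906 and 11652 in the erythroid-like cells, and thinning left out 13 and 20 of the endothelial-like cells.

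**Figure D1:**
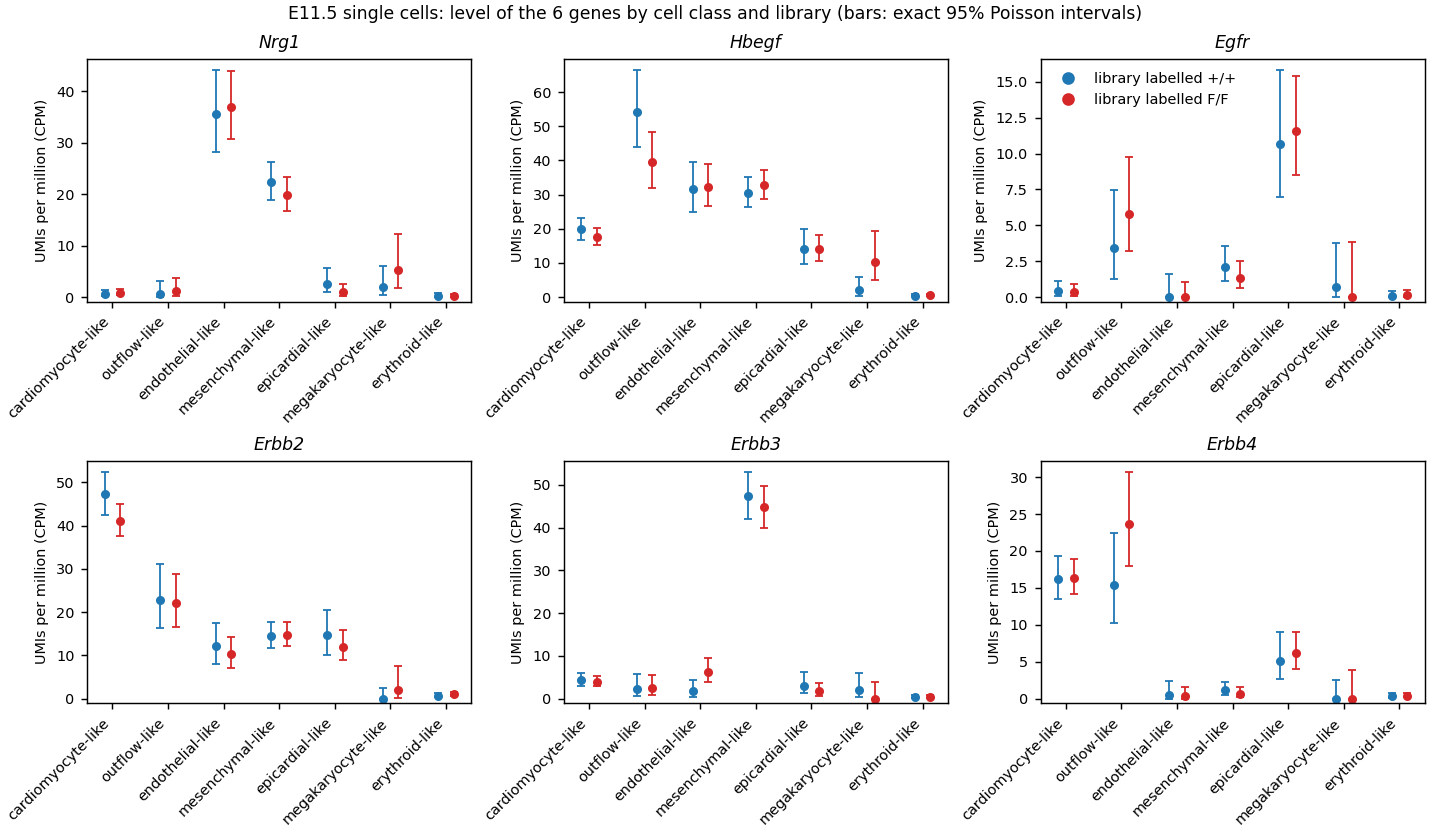
Level of the 6 genes in E11.5 single cells, in CPM on linear axes that differ between panels, by cell class, with a blue point for the library labelled +/+ and a red point for the library labelled F/F and exact 95% Poisson intervals as bars. Nrg1 stands highest in endothelial-like cells (35.5 and 36.8 CPM), Erbb3 in mesenchymal-like cells (47.3 and 44.7 CPM), Erbb2 in cardiomyocyte-like cells (47.3 and 41.1 CPM) and Egfr in epicardial-like cells (10.7 and 11.6 CPM).

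Hbegf was spread over all classes of the heart wall. It was highest in the outflow-like cells, a cluster led by genes of the second heart field and outflow tract such as Isl1, Sema3c and Rspo3 in which all 12 cardiomyocyte markers also led, at 54.3 CPM (43.9 to 66.4) for +/+ and 39.5 CPM (32.0 to 48.3) for F/F. Among the named classes, endothelial-like cells followed at 31.6 and 32.3 CPM and mesenchymal-like cells at 30.6 and 32.8 CPM, with intervals that overlapped one another. The unnamed cluster had 34.0 CPM (22.0 to 50.2) for +/+ and 21.9 CPM (12.3 to 36.2) for F/F. Cardiomyocyte-like cells were lower, at 19.8 and 17.6 CPM, and epicardial-like cells stood at 14.2 and 14 CPM. Erythroid-like cells had 0.434 and 0.493 CPM. The class means hid clusters that differed: the Stmn2-led endothelial-like cluster had 51.8 CPM (43.7 to 61.0) and the Emcn-led one 13.0 CPM (9.23 to 17.9), and the Inhba-led mesenchymal-like cluster had 52.9 CPM (47.3 to 58.9) and the Msx1-led one 13.7 CPM (11.2 to 16.7).

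Erbb2 was highest in cardiomyocyte-like cells, which held 63.0% of its UMIs in the library labelled +/+ and 63.4% in the library labelled F/F. Its level there was 47.3 CPM (42.5 to 52.4, 359 UMIs) and 41.1 CPM (37.5 to 44.9, 475 UMIs). Outflow-like cells came next at 22.9 and 22.0 CPM, with intervals whose upper ends of 31.1 and 28.8 CPM lay below the cardiomyocyte-like ones. Mesenchymal-like, epicardial-like and endothelial-like cells lay between 10.3 and 14.8 CPM with overlapping intervals, above the erythroid-like background of 0.651 and 0.987 CPM. All 3 cardiomyocyte-like clusters carried Erbb2, at 44.9 CPM (40.4 to 49.8) where Nppa, Gja5 and Bmp10 led, genes known from the trabecular layer and the atria, at 40.6 CPM (36.7 to 44.8) where Myoz2 and Myl2 led, and at 56.5 CPM (44.6 to 70.6) where Shox2, a gene of the sinoatrial region, led. Their intervals overlapped, those of the Myl2-led and Shox2-led clusters narrowly.

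Erbb4, the receptor that binds neuregulin in cardiomyocytes, was found mainly in cardiomyocyte-like, outflow-like and epicardial-like cells. It was at 16.2 CPM (13.5 to 19.3) in cardiomyocyte-like cells labelled +/+ and 16.4 CPM (14.2 to 18.9) in those labelled F/F, and at 15.4 CPM (10.2 to 22.5) and 23.7 CPM (18.0 to 30.7) in outflow-like cells. Epicardial-like cells had 5.15 and 6.15 CPM, and the unnamed cluster 8.16 and 2.92 CPM (6 and 2 UMIs). Endothelial-like cells had 1 UMI in each library and mesenchymal-like cells 7 and 5, with CPM intervals that overlapped those of the erythroid-like cells at 0.289 and 0.384 CPM. Of cardiomyocyte-like cells with an Erbb4 UMI, 62.8% (52.2 to 72.5) labelled +/+ and 49.3% (41.0 to 57.7) labelled F/F also had an Erbb2 UMI, against 44.2% (39.1 to 49.3) and 40.3% (36.5 to 44.2) of those without. The cells with an Erbb4 UMI were also deeper, with a median of 17564 against 14836 UMIs in the library labelled +/+ and 16683 against 13822 in the library labelled F/F, and the part of depth in that difference was not tested.

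Erbb3 marked the mesenchymal-like cells, which held 83.2% of its UMIs in the library labelled +/+ and 78.0% in the library labelled F/F. It stood at 47.3 CPM (42.1 to 53.0, 297 UMIs) and 44.7 CPM (40.0 to 49.8, 330 UMIs). The Inhba-led cluster, in which Postn and Meox1 were also among the leading genes, had 60.5 CPM (54.6 to 66.9) and the Msx1-led one 33.4 CPM (29.4 to 37.9), the same order as for Nrg1 and Hbegf. Cardiomyocyte-like cells had 4.35 and 3.89 CPM, epicardial-like cells 3.01 and 1.72 CPM, outflow-like cells 2.29 and 2.50 CPM, endothelial-like cells 1.73 and 6.17 CPM, the unnamed cluster 4.08 and 10.2 CPM (3 and 7 UMIs) and erythroid-like cells 0.434 and 0.384 CPM. Thinned to 5000 UMIs, 20.1% (16.4 to 24.2) and 19.4% (16 to 23.2) of mesenchymal-like cells had an Erbb3 UMI, against 0.457% and 0.255% of erythroid-like cells. Without thinning the mesenchymal-like shares were 41.3% and 43.5%, at median depths of 13641 and 14711 UMIs. Of mesenchymal-like cells with an Erbb3 UMI, 21.4% (15.7 to 28.0) and 21.0% (15.8 to 27.0) also had an Erbb2 UMI, against 14.7% (10.6 to 19.5) and 17.6% (13.4 to 22.5) of those without. These intervals overlapped, and the cells with an Erbb3 UMI were deeper, at medians of 15256 and 15847 against 12489 and 13805 UMIs.

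Egfr was the rarest of the receptors in UMIs and lay mainly in epicardial-like cells. These had 10.7 CPM (6.95 to 15.8, 25 UMIs) labelled +/+ and 11.6 CPM (8.49 to 15.4, 47 UMIs) labelled F/F, which was 47.2% and 57.3% of all Egfr UMIs. Outflow-like cells had 3.43 and 5.82 CPM, the unnamed cluster 5.44 and 4.38 CPM (4 and 3 UMIs) and mesenchymal-like cells 2.07 and 1.36 CPM. No Egfr UMI was seen in 186 and 273 endothelial-like cells, which have exact upper limits of 1.60 and 1.08 CPM. Cardiomyocyte-like cells had 3 and 4 UMIs, 0.395 and 0.346 CPM, with intervals that overlapped those of the erythroid-like cells at 0.0724 and 0.164 CPM.

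Across the 18 clusters, with both libraries summed, the members fell into different patterns. The genes whose log2(CPM + 10) followed Nrg1 most closely were Rhoj, Ramp2 and Bmx (Pearson's r of 0.98, 0.97 and 0.96), all highest in endothelial-like clusters. Erbb4 was most like Tecrl, Pgam2 and Ppp1r3b (0.99, 0.99 and 0.98) and Erbb2 most like Stk39, Ephb3 and Vash2 (0.98, 0.97 and 0.97), all highest in cardiomyocyte-like or outflow-like clusters. Erbb3 was most like Papss2, St6galnac5 and Akr1cl (0.97, 0.96 and 0.95), highest in the Inhba-led mesenchymal-like cluster. Egfr was most like Ntf5, Tmem151a and Cpz (0.95, 0.94 and 0.94), highest in the epicardial-like cluster, and Hbegf most like Purg, Myadm and Rabac1 (0.94, 0.94 and 0.93). Among the members, Erbb2 and Erbb4 had r of 0.86, Erbb2 and Hbegf 0.70, and Nrg1 and Erbb4 -0.26. These are descriptions over clusters that share 2 libraries and were cut from the same expression values, with Nrg1, Hbegf and Erbb3 among the genes used for clustering.

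The single-cell comparison asked whether loss of Hand2as changed these genes within a cell class at E11.5, with 1 library per genotype and therefore no test. Of 22 pairs of a class and a gene with at least 20 UMIs, 3 had an F/F over +/+ ratio whose exact 95% interval left out 1, 1 higher and 2 lower. Over every gene and class that reached the same count, 17.5% did so, and the members' share was close to that background. Hbegf in outflow-like cells had 95 UMIs in each library and a log2 ratio of -0.46 (-0.88 to -0.03). Erbb2 in cardiomyocyte-like cells had a ratio of 0.869 (0.756 to 0.999). With Leiden resolution 0.5, or with the members kept out of the variable genes, only the Erbb3 pair left out 1, and with at least 1000 genes per cell or with doublets kept only the Hbegf and Erbb2 pairs did. Erbb3 in endothelial-like cells rested on 4 and 21 UMIs, and its log2 ratio was 1.84 (0.27 to 3.84). With cells thinned to 5000 UMIs, none of the 17 pairs that still had enough UMIs left out 1.

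Other pairs of a gene and its leading classes had intervals that held no difference. Nrg1 had a log2 ratio of 0.05 (-0.36 to 0.47) in endothelial-like cells and -0.17 (-0.52 to 0.17) in mesenchymal-like cells. Unlike Erbb2 above, Erbb4 had 0.02 (-0.31 to 0.36) in cardiomyocyte-like cells, and Erbb3 had -0.08 (-0.31 to 0.15) in mesenchymal-like cells. These bounds cover counting error only, and the spread between hearts cannot be seen in them. Erbb4 in outflow-like cells stood at 0.62 (-0.07 to 1.34).

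**Figure D2:**
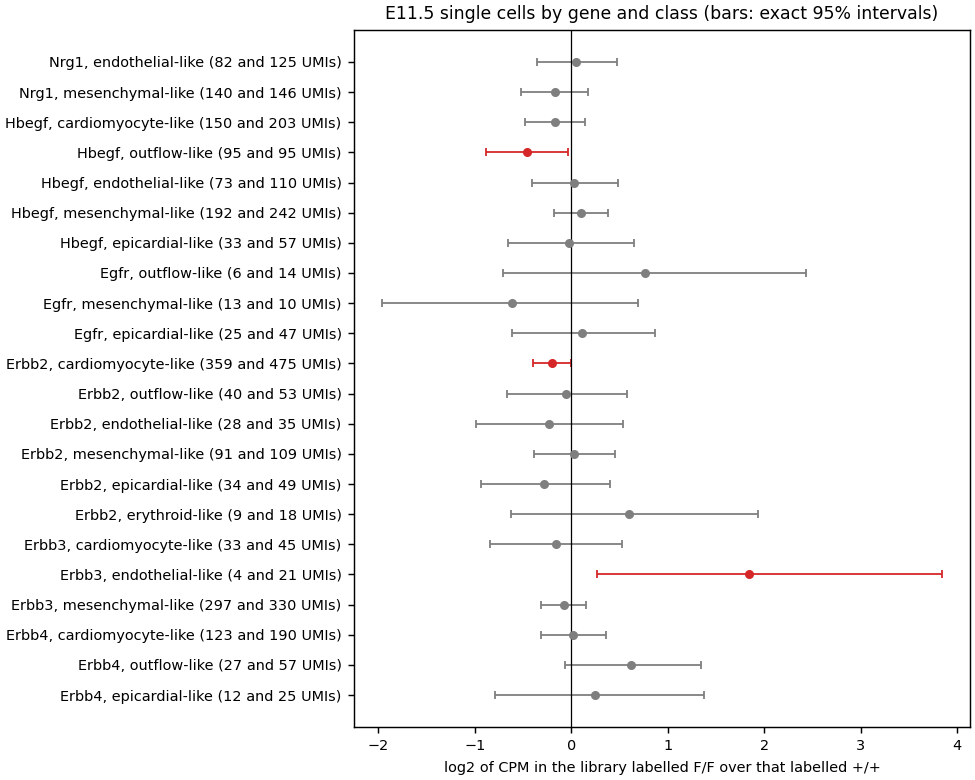
The log2 ratio of CPM in the library labelled F/F over that labelled +/+ for the 22 gene and class pairs with at least 20 UMIs, with exact 95% intervals as bars, the UMIs of each library in the row names and red for intervals that leave out 0 on the log2 scale. The 3 red pairs are Hbegf in outflow-like cells (-0.46), Erbb2 in cardiomyocyte-like cells (-0.20) and Erbb3 in endothelial-like cells (1.84).

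In the bulk libraries, each member had its own course over the stages. Levels are compared between genes on the inferred unit, since FPKM are per length of transcript. At E11.5 Erbb2 was by far the most abundant, at 24.0, 36.1 and 22.2 FPKM in the F/+ hearts. At E16.5 it stood at 32.4, 30.8 and 33.0 FPKM in the F/+ ventricles. In the 5 +/+ cardiomyocyte libraries at 8 weeks it ran from 1.42 over a median of 2.15 to 2.46 FPKM, so no adult library came near an embryonic one. The other receptors never exceeded 5.14 FPKM. By 8 weeks Hbegf, at a median of 7.73 FPKM in +/+ cardiomyocytes, was the highest of the 6 genes, and Erbb2 and Erbb3 overlapped.

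Erbb2 fell by 3.42 on the log2(FPKM + 1) scale (SE 0.15, limma adjusted p = 9.87e-08) from E16.5 F/+ ventricle (32.1 ± 1.13 FPKM, SD, n = 3) to 8-week +/+ cardiomyocytes (2.10 ± 0.416, n = 5). It was lower in all 13 alternative fits, by 3.16 to 3.89, so the size of the drop varied little. Erbb3 fell by 0.71 (SE 0.19, limma adjusted p = 0.00769), from 5.14, 4.33 and 4.21 FPKM to between 1.63 and 3.15 FPKM, with no overlap. Hbegf rose by 0.74 (SE 0.29, limma adjusted p = 0.0430), from 3.31, 3.72 and 4.45 FPKM to between 3.44 and 11.6 FPKM. The Hbegf groups overlapped at +/+ replicate 5, and its call was lost in 8 of 13 alternative fits, including those without any of the 3 F/+ libraries or any of +/+ replicates 1 to 4 (adjusted p from 0.0651 to 0.129). Erbb4 did not pass (log2 change -0.12, SE 0.23, limma adjusted p = 0.663), at 1.31, 1.08 and 1.49 FPKM against 0.43 to 1.87 FPKM. So 3 of 4 tested members were called, where 69.8% of all 10904 genes tested were.

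Stage, genotype and preparation cannot be told apart in that comparison, since the E16.5 libraries were whole ventricle and the adult ones cardiomyocytes. All 10 mesenchymal markers were listed and their summed level went from between 1221.8 and 1383.1 FPKM to between 36.7 and 66.8 FPKM, with none at 0 in every library. The 11 endothelial markers summed to 330 to 365 FPKM and then 120 to 399 FPKM, and the 12 cardiomyocyte markers to 16669.2 to 18985.5 and then 34167.1 to 41816.6 FPKM. Erbb3, the mesenchymal member of the E11.5 cells, was lower in the adult libraries (log2 change -0.71), as were the mesenchymal markers. The earlier step in F/+ differed. From E11.5 to E16.5 the mesenchymal markers rose, from between 427 and 552 FPKM to between 1221.8 and 1383.1 FPKM. Erbb3 was not called there (log2 change 0.28, SE 0.27, limma adjusted p = 0.410). Erbb2, the cardiomyocyte member, fell from E16.5 to the adult libraries while the cardiomyocyte markers stood higher. The part of cell makeup in these changes was not tested. In bulk RNA, fewer cells of a type and less RNA per cell cannot be told apart.

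Between E11.5 hearts and E16.5 ventricles of F/+ embryos, Nrg1 stood lower and Hbegf rose. Stage and tissue cannot be told apart here, since the earlier libraries were whole hearts. Nrg1 was at 1.59, 2.83 and 1.94 FPKM at E11.5 and at 0.22, 0.42 and 0.38 FPKM at E16.5, without overlap. The log2 change was -1.20 (SE 0.26, limma adjusted p = 0.00582). Nrg1 passed the filter on low values only through the E11.5 libraries, so it had to differ, and its call is no separate support for the drop. Hbegf was at 2.52, 2.26 and 1.5 FPKM and then 3.31, 3.72 and 4.45 FPKM, and rose by 0.65 (SE 0.22, limma adjusted p = 0.0401). That call was lost in 7 of 11 alternative fits, among them the fit rescaled without haemoglobin genes (0.43, adjusted p = 0.113) and those without F/+ E11.5 replicate 3 or any of the E16.5 replicates (adjusted p from 0.0512 to 0.158).

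The receptors did not pass in that step. Erbb4 had 2.95, 3.58 and 1.59 FPKM at E11.5 and 1.31, 1.08 and 1.49 FPKM at E16.5, lower in every E16.5 library (log2 change -0.66, SE 0.27, limma adjusted p = 0.0753), and it was called without F/+ E11.5 replicate 3 (-0.90, adjusted p = 0.00794) and after rescaling without haemoglobin genes (-0.89, adjusted p = 0.0173). Erbb2 had a change of 0.25 (SE 0.19, limma adjusted p = 0.295) that was 0.51 (adjusted p = 0.0360) under upper-quartile scaling, 0.46 (adjusted p = 0.0190) without F/+ E11.5 replicate 2 and -0.06 (adjusted p = 0.742) without haemoglobin genes. Erbb3 had a change of 0.28 (SE 0.27, limma adjusted p = 0.410). Egfr, at 2.39, 1.22 and 1.52 FPKM and then 0.54, 0.19 and 0.08 FPKM, did not reach the filter of a mean of 1 FPKM and was not tested. Of the 4 tested members that did not pass the filter through E11.5 alone, 1 was called, Hbegf, where 48.7% of all 11405 genes tested were, and nothing particular to the members is read from it.

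The direction of small changes between stages depended on scaling. The median log2 change over all genes was -0.18 as deposited, 0.05 under upper-quartile scaling and -0.47 after rescaling without haemoglobin genes, and the genes called were 2016 higher and 3536 lower, 3005 higher and 2558 lower, and 1348 higher and 5243 lower in turn. From E16.5 to 8 weeks the median was -0.34 as deposited and -0.07 under upper-quartile scaling, with 2716 higher and 4897 lower against 3408 higher and 3881 lower. Erbb2 moved further than these medians from E16.5 to 8 weeks. From E11.5 to E16.5 the summed epicardial markers, all 8 of them listed, went from between 208 and 325 FPKM to between 37.2 and 46.4 FPKM, beside the drop of Egfr, whose main class at E11.5 was epicardial-like. The 11 endothelial markers stayed between 330 and 379 FPKM, beside the lower Nrg1. The 10 mesenchymal markers rose from between 427 and 552 FPKM to between 1221.8 and 1383.1 FPKM. Mesenchymal-like cells held the largest shares of Nrg1 and Erbb3 UMIs at E11.5, and neither gene was called higher. The 6 outflow markers went from between 40.1 and 69.6 FPKM to between 19.5 and 25.8 FPKM, with Isl1 and Fgf10 at 0 in all E16.5 F/+ libraries, and the 5 smooth muscle markers from between 1023.2 and 1398.3 FPKM to between 351 and 378 FPKM. The part of these classes in the members' changes was not tested.

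**Figure D3:**
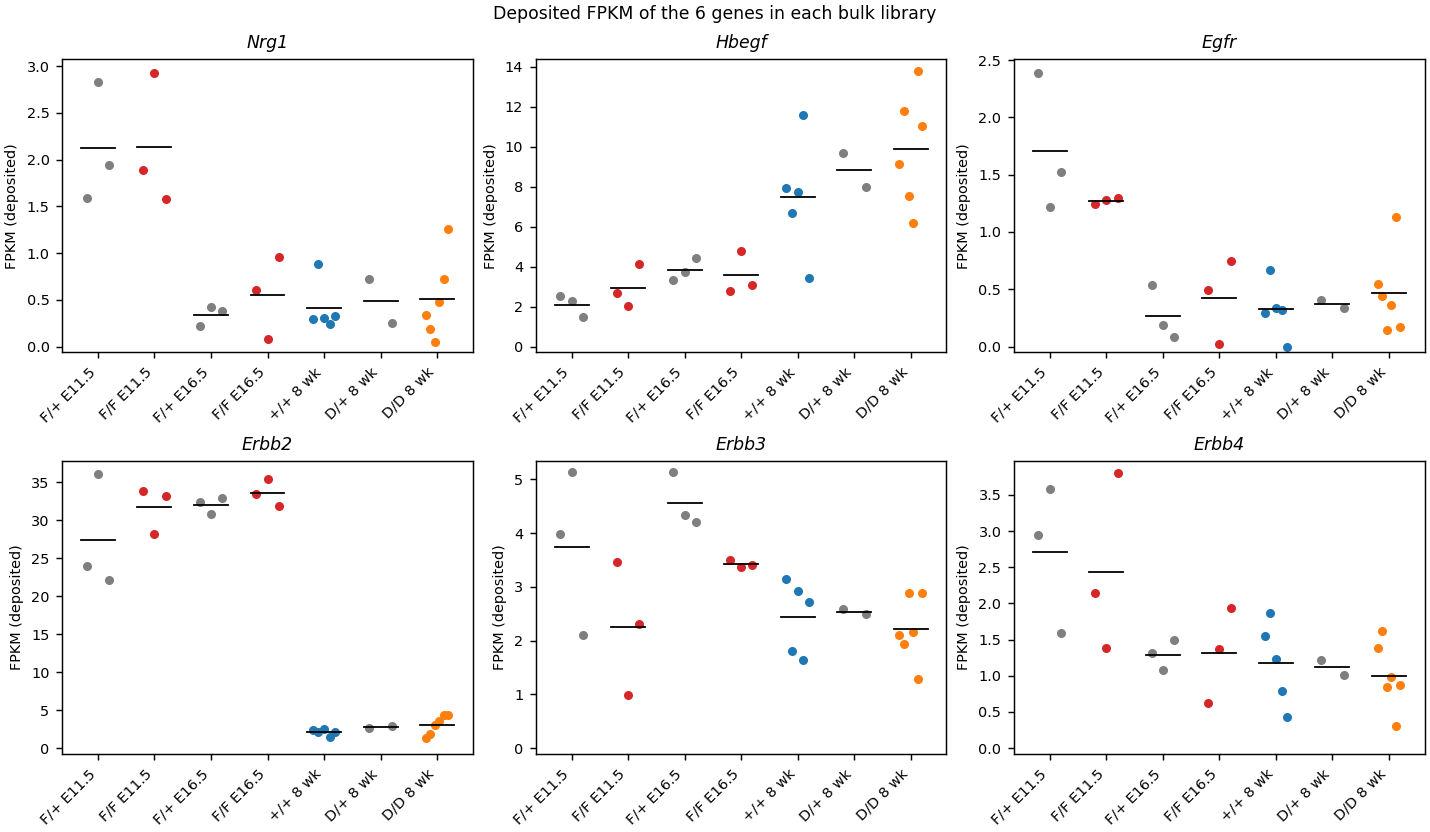
FPKM of the 6 genes in each of the 25 bulk libraries, as deposited, by genotype and stage, with 1 point per library, a black line at each group's mean and linear axes that differ between panels. Erbb2 lies between 22.2 and 36.1 FPKM in the 12 embryonic libraries and between 1.37 and 4.36 FPKM in the 13 adult ones, and Hbegf is highest at 8 weeks.

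The embryonic genotype comparison asked whether these genes differed between F/F and F/+ hearts. At E11.5, 0 of 6 members were called by limma, none had an unadjusted p under 0.05, and over all genes the share called was 0.00870%. Nrg1 had 1.89, 2.93 and 1.58 FPKM in F/F hearts, nearly the F/+ range (log2 change 0.00, SE 0.34). Erbb2 had 33.9, 28.2 and 33.2 FPKM (0.23, SE 0.21) and Erbb4 2.14, 1.38 and 3.80 FPKM (-0.13, SE 0.38). Erbb3 had 3.47, 0.99 and 2.30 FPKM against 3.99, 5.14 and 2.10 FPKM (-0.56, SE 0.40, limma adjusted p = 0.999), which ran from -0.84 to -0.25 over the alternative fits and was -0.25 without F/F replicate 2. The 6 neural crest and Schwann cell markers summed to 4.77 to 6.35 FPKM in F/F and 6.91 to 15.1 FPKM in F/+ hearts. Summed mesenchymal markers overlapped, at 384 to 447 FPKM in F/F and 427 to 552 FPKM in F/+ hearts. The part of either list in the Erbb3 values was not tested. No member's groups were without overlap, where 9.23% of all genes had such groups. Summed endothelial markers ran from 407 to 438 FPKM in F/F and from 344 to 379 FPKM in F/+ hearts, and cardiomyocyte markers from 14002.5 to 15988.6 and from 11592.5 to 13778.1 FPKM; their part in the members' values was not tested.

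At E16.5, 0 of 4 tested members were called by limma, against 0.00935% of all genes. Erbb3 was lower in every F/F ventricle, at 3.50, 3.36 and 3.41 FPKM against 5.14, 4.33 and 4.21 FPKM, a log2 change of -0.33 (SE 0.13, limma adjusted p = 1). It was the only member of 4 whose groups did not overlap and the only one with an unadjusted p under 0.05, and 6.78% of all genes had groups without overlap. The estimate ran from -0.40 to -0.25 over 12 alternative fits, none of which called it, and was -0.25 (SE 0.22) with a covariate for the Y-linked genes, chosen after seeing the data. Summed mesenchymal markers overlapped, at 1208.3 to 1375.2 FPKM in F/F and 1221.8 to 1383.1 FPKM in F/+. The 6 neural crest and Schwann cell markers, cells that are also known to use Erbb3, moved with it: they summed to 2.28 to 2.49 FPKM in F/F and 2.90 to 3.16 FPKM in F/+ ventricles. Their part in the Erbb3 values was not tested. Erbb2 had 33.4, 35.4 and 31.8 FPKM in F/F ventricles (0.06, SE 0.08), and Hbegf and Erbb4 had changes of -0.10 (SE 0.19) and -0.03 (SE 0.24). Nrg1 at 0.60, 0.08 and 0.96 FPKM and Egfr at 0.49, 0.02 and 0.75 FPKM were below the filter. The difference of the F effect between stages was not called for any of 5 tested members, where 0.00875% of all genes were, and for Erbb3 it was 0.24 (SE 0.43, limma adjusted p = 0.999).

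At 8 weeks, 0 of 4 tested members differed between D/D and control cardiomyocytes (+/+ and D/+) by limma, none had an unadjusted p under 0.05, and the share of all genes called was 0%, with 175 of 10249 under an unadjusted p of 0.05. Hbegf ran from 6.17 over 10.1 to 13.8 FPKM in D/D and from 3.44 over 7.95 to 11.6 FPKM in controls (log2 change 0.32, SE 0.23). Erbb2 ran from 1.37 over 3.30 to 4.36 FPKM in D/D and from 1.42 over 2.41 to 2.86 FPKM in controls (0.26, SE 0.20). Both groups overlapped, as they did for the other tested members, and 0.0293% of all genes had groups without overlap. Erbb3 had a change of -0.12 (SE 0.15) and Erbb4 of -0.11 (SE 0.19), and Nrg1 and Egfr had means of at most 0.507 FPKM in both groups and were not tested.

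The adult libraries also fell into sets of 5 and 8 that no label explains, each with both genotypes, and Erbb2 took opposite directions in them. In the set of 5 (replicates 1 and 2 of +/+, replicate 1 of D/+, replicates 1 and 2 of D/D) both D/D values, 1.37 and 1.81 FPKM, lay below the 3 controls at 2.15 to 2.60 FPKM. In the set of 8 all 4 D/D values, 3.05 to 4.36 FPKM, lay above the 4 controls at 1.42 to 2.86 FPKM. The sets were found in the data as the split of 5 and 8 with the most genes that do not overlap (862 of 10249), Erbb2 was singled out after its values were seen, and a difference between the sets was not tested. Over all genes 28.4% had D/D and control values without overlap in the set of 5, 1.70% in the set of 8, and 0.420% in both with opposite directions. With a term for these sets, chosen after seeing the data, the Erbb2 change was 0.23 (SE 0.18). Hbegf, with means of 10.5 against 8.12 FPKM in the set of 5 and 9.62 against 7.68 FPKM in the set of 8, overlapped in both.

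**Figure D4:**
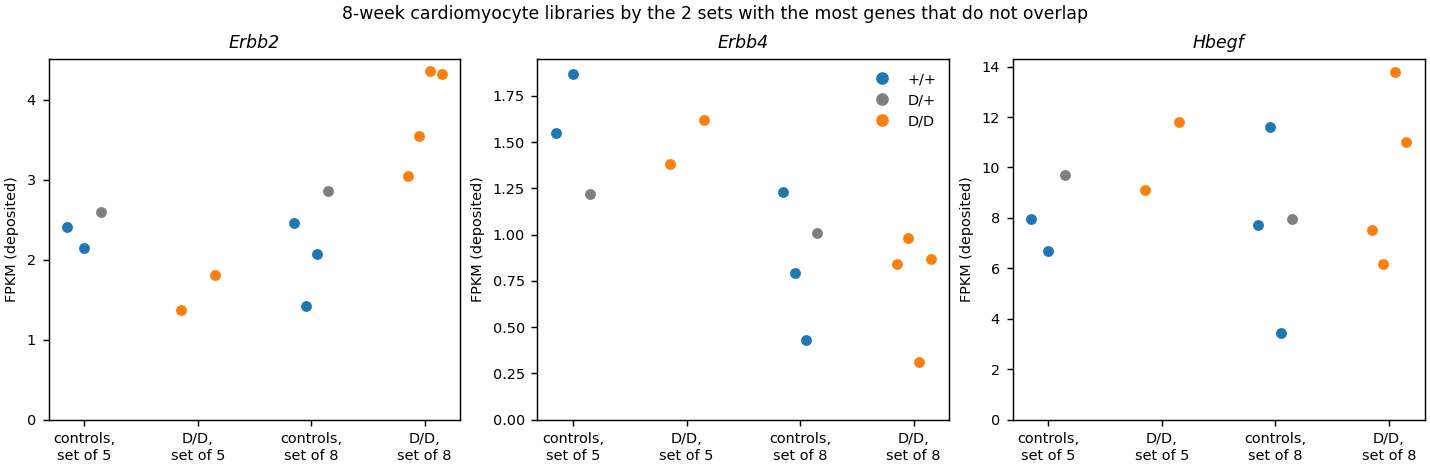
FPKM of Erbb2, Erbb4 and Hbegf in the 13 8-week cardiomyocyte libraries, as deposited, by genotype within the sets of 5 and 8 libraries, with 1 point per library (blue +/+, grey D/+, orange D/D) and axes from 0. In the set of 5 both D/D points of Erbb2 (1.37 and 1.81 FPKM) lie below the controls, and in the set of 8 all 4 (3.05 to 4.36 FPKM) lie above them.

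The rest of the pathway was read from 5 gene lists. None of their genes was called by limma in either F/F comparison, in D/D or in the difference between stages. Of the 9 other EGF-family ligands, 1 was high enough to be tested at each stage step. Egf had means of 0.497 FPKM in E16.5 F/+ ventricles and 2.19 FPKM in 8-week +/+ cardiomyocytes and passed the filter only through the latter, so it had to differ and its test is not used, and the other 8 had means of at most 1.22 FPKM at every stage. Nrg1 and Hbegf were thus the most abundant ligands of the family at E11.5, and Hbegf alone stood above 3 FPKM later.

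The ligand shedding list held 9 proteases that release the membrane-bound ligands and their partners. In the single cells Adam15 stood at 63.4 CPM in endothelial-like cells and 9.86 CPM in megakaryocyte-like cells, the next class, and Adam19 at 95.3 CPM in mesenchymal-like and 65.1 CPM in endothelial-like cells. Adam17, which cleaves the Hbegf and Nrg1 precursors, had 18.4 CPM in endothelial-like and 14.2 CPM in cardiomyocyte-like cells. From E11.5 to E16.5, 1 of 9 rose and 1 fell, where 48.7% of all genes were called, and the median change was 0.09 over the list and -0.18 over all genes. Under upper-quartile scaling 4 rose and 0 fell, without haemoglobin genes 1 rose and 4 fell, and no gene fell without the filter or without F/+ E11.5 replicate 1. Adam15 rose from 15.1 ± 3.07 to 34.4 ± 2.22 FPKM (SD, n = 3 and 3, limma adjusted p = 6.78e-04), and Cd9, a tetraspanin partner of the Hbegf precursor, fell from 19.4 ± 2.18 to 9.08 ± 4.77 FPKM (n = 3 and 3, limma adjusted p = 0.0294). From E16.5 to 8 weeks, 4 of 8 tested genes fell and 0 rose, where 69.8% of all genes were called, with a median of -0.66 against -0.34 over all genes. Adam19 fell by 2.13 on the log2 scale, Adam10 by 1.62, Adam17 by 0.98 and Rhbdf1, an inactive rhomboid that handles Adam17, by 0.67.

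The signal relay list held 20 adaptors and kinases between the receptors and the MAPK and PI3K routes, and all were tested. From E11.5 to E16.5, 2 rose and 6 fell (median -0.12 against -0.18 over all genes), a share below the 48.7% of all genes called. Among them Plcg1, a phospholipase, fell by 1.40 (SE 0.21), Src by 0.64 (SE 0.21), the adaptor Shc1 by 0.62 (SE 0.14) and the ERK kinase Mapk3 by 0.48 (SE 0.14), and the PI3K regulatory subunit Pik3r1 rose by 0.71 (SE 0.17). Without haemoglobin genes 15 fell and 0 rose, under upper-quartile scaling 2 fell and 3 rose, and 2 to 8 fell with 1 library left out, the fewest without F/+ E16.5 replicate 2 or 3. From E16.5 to 8 weeks 5 rose and 8 fell (median -0.22 against -0.34, and 69.8% of all genes called). With 1 library left out, 5 to 8 rose and 6 to 9 fell. Src fell by 2.51, from 12.3 ± 0.176 FPKM (n = 3) to 1.35 ± 0.369 FPKM (n = 5), the focal adhesion kinase Ptk2 by 1.43 and Shc1 by 1.28. Pik3r1 rose by 1.23, Plcg1 by 0.84, Akt2 by 0.66 and the phosphatase Ptpn11 by 0.44.

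Of 11 genes that restrain the receptors, 3 fell and 0 rose from E11.5 to E16.5 (median -0.23 against -0.18, and 48.7% of all genes called), among them the phosphatase Ptpn12 by 0.89 (SE 0.16). Without haemoglobin genes 6 fell, 5 fell and 1 rose without F/+ E11.5 replicate 3, and under upper-quartile scaling 1 rose. From E16.5 to 8 weeks 2 of 10 rose and 4 fell (median -0.17 against -0.34, and 69.8% of all genes called). Errfi1, a feedback inhibitor that binds the receptor kinases, rose from 2.88 ± 0.780 FPKM (n = 3) to 8.68 ± 2.92 FPKM (n = 5, limma adjusted p = 0.00126), and Lrig1, a membrane protein that promotes receptor breakdown, rose by 0.65. Rnf41, the ubiquitin ligase known for turning over Erbb3, fell by 1.63 (SE 0.15), beside the fall of Erbb3 itself, and the deubiquitinase Usp8 by 0.63.

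Of 15 genes that respond to MAPK signalling, 1 rose and 5 fell from E11.5 to E16.5 (median -0.24 against -0.18), a share below the 48.7% of all genes called. Without haemoglobin genes 9 fell, under upper-quartile scaling or without the filter 1 fell, and with 1 library left out 1 to 9 fell, 9 without F/+ E11.5 replicate 3 and 1 or 2 without any of the others. Spry2, a feedback inhibitor, rose by 1.02 (SE 0.19), and Dusp4, Dusp5, Ier2 and Etv5 fell by 1.10, 0.76, 0.65 and 0.63. From E16.5 to 8 weeks 4 rose and 7 fell (median -0.21 against -0.34, and 69.8% of all genes called). Among the 7 were Dusp4 (means of 3.16 and 0.728 FPKM) and Etv4 (3.78 and 0.270 FPKM). Both passed the filter only through E16.5, so they had to differ and their calls are no separate support. The immediate early genes moved furthest, Fos from 2.4 ± 1.15 to 241 ± 57.5 FPKM and Egr1 from 11.1 ± 1.65 to 589 ± 166 FPKM (n = 3 and 5, limma adjusted p of 8.17e-08 and 4.82e-08), with Ier2 and Dusp5 higher by 1.85 and 0.94. Ccnd1, a cyclin of cell cycle entry, fell by 2.23 on the log2 scale, and so did Spry2 (log2 change -2.04), Myc (-2.03) and Dusp6 (-1.15). The adult libraries were isolated cardiomyocytes by their label, and the part of preparation in these levels was not tested.

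**Figure D5:**
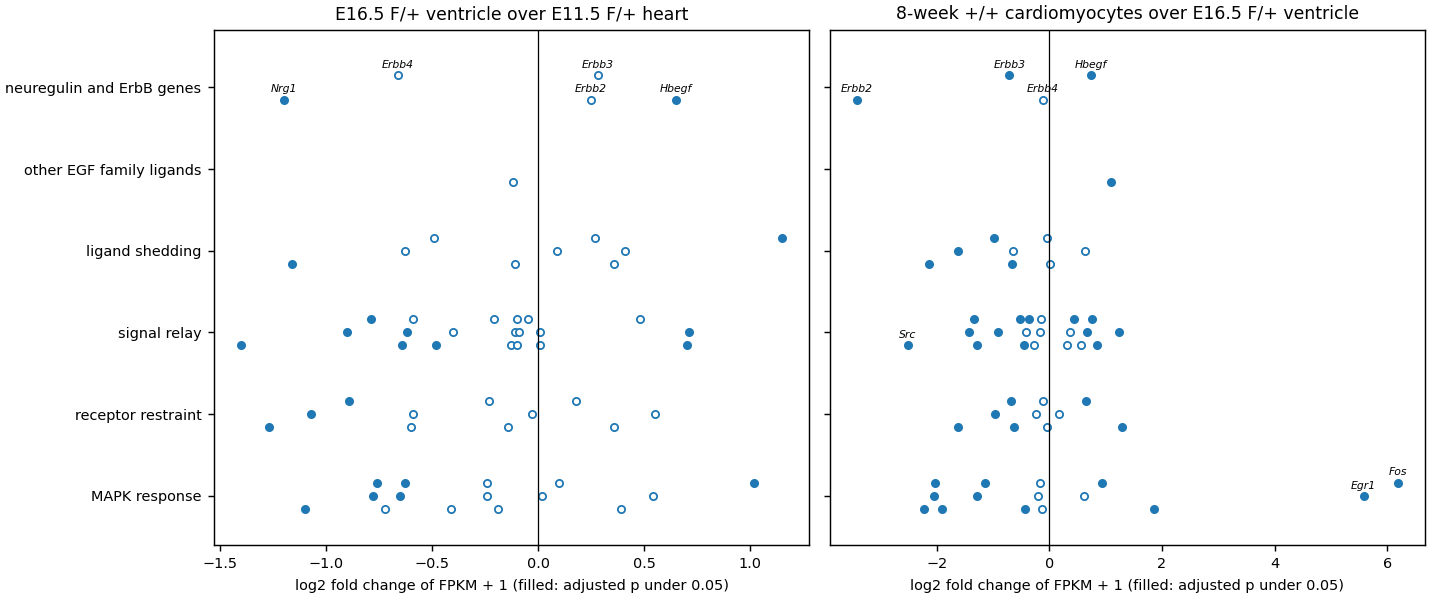
Log2 fold changes of FPKM + 1 for the members and the 5 pathway lists, on the left from E11.5 heart to E16.5 ventricle in F/+ and on the right from E16.5 F/+ ventricle to 8-week +/+ cardiomyocytes, with 1 point per gene tested, filled where the limma adjusted p was under 0.05, and vertical offsets for legibility only. Erbb2 at -3.42 lies furthest to the left on the right panel, and Fos (6.18) and Egr1 (5.58) furthest to the right.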

How the data were processed

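FPKM of 25 bulk libraries were deposited by the authors in 1 table; the unit is inferred from the values. Per the submitters' processing notes, bulk reads went through CASAVA and TopHat2 2.0.11 with mm9, and single cells through Cell Ranger with mm10; other steps are not given in the sources used here. The authors deposited UMI counts of both single-cell libraries in 1 table, in which the barcode endings KO and WT were read as the libraries labelled F/F and +/+. All per-sample columns were used.

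Identical bulk lines were merged. Genes whose mean over the fitted libraries reached 1 FPKM were tested by limma 3.58.1 (R 4.3.3, intensity trend) on log2(FPKM + 1), with Benjamini-Hochberg adjustment over all genes tested and calls at an adjusted p under 0.05; on this scale the change of low genes is understated. The fit was tested on simulated data.

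Barcodes with at least 500 genes were kept. Scrublet's automatic call marked 0.366% of 6019 barcodes, so the highest scores were removed at 0.8% per 1000 barcodes (52 labelled +/+ and 96 labelled F/F). The remaining 5871 cells were clustered with Scanpy 1.11.5 (2000 variable genes, 30 components, 15 neighbours, Leiden resolution 1). A cluster was named where at least 3 markers and 2 in 3 of a list led; of 18 clusters 1 stayed unnamed. UMIs were summed per class and library, intervals are exact at 95%, and pairs needed 50 cells per library and 20 UMIs.

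Besides the members, the pathway genes named are those called, averaging 5 FPKM or more and without overlap, at most 4 per list and direction (1 such gene, and which neural crest markers were at 0, are not reported here), and the 3 genes most like each member among those with at least 200 UMIs; Gm28063, Egf and cluster-leading genes were named after their values were seen. Members and lists were chosen with earlier results of these data known.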

Additional observations from a re-analysis of the deposited data

Results flagged for a closer look

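Nrg1 in +/+ replicate 2 at 8 weeks stood far from the other 4 +/+ libraries, at 0.880 FPKM against 0.240 to 0.330 FPKM. It was the only such value among 12 sets of a member and an 8-week group. Chance gives such a value in about 1 in 20 sets, so 1 among 12 sets is not a rare result. The level is below 1 FPKM, and Nrg1 was not tested at 8 weeks.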

How the results depend on the processing

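The drop of Erbb2 and Erbb3 to 8 weeks kept its direction and call in all 13 alternative fits. Nrg1 from E11.5 to E16.5 passed the filter through E11.5 alone, which sets its direction, and missed it without F/+ E11.5 replicate 2. Of the 399 alternative values of members in bulk, 359 kept direction and call, and the calls of Hbegf between stages were lost as given above. Replicate numbers did not pair the libraries: at E11.5 same-numbered libraries correlated at -0.036, -0.017 and 0.082, at E16.5 at -0.081, 0.042 and -0.435, and at 8 weeks between -0.131 and 0.502. With the number as a block, genes called for F/F at E11.5 were 2 instead of 1, and the Erbb4 change to 8 weeks was 0.15 instead of -0.12; upper-quartile scaling gave 0.05. Nrg1 at E11.5, near 0 for F/F, was -0.05 under upper-quartile scaling and -0.05 without haemoglobin genes, Erbb2 from E11.5 to E16.5 was -0.06 without haemoglobin genes, and Erbb4 for F/F at E16.5 was 0.11 after adjusting for the Y-linked genes, an alternative added after seeing the data. Genes called for F/F at E16.5 were 2 with a pseudocount of 0.1 and 3 with that covariate; those for the difference between stages were 2 with that pseudocount and 3 without a filter. The single-cell pairs that left out 1 were 0 after thinning, which lowers the UMIs, 1 at Leiden resolution 0.5 and 1 with variable genes without the members, also added later. Leaving out 1 library at a time, genes called ranged from 1 to 2 for F/F at E11.5, from 0 to 2 at E16.5 and from 1 to 9 for the difference between stages. Estimates that crossed 0 ranged for F/F at E11.5 from -0.17 to 0.16 for Nrg1 and from -0.40 to 0.11 for Erbb4, at E16.5 from -0.29 to 0.02 for Hbegf and from -0.22 to 0.21 for Erbb4, for D/D from -0.20 to 0.00 for Erbb4, to 8 weeks from -0.23 to 0.02 for Erbb4, and for the difference between stages from -0.03 to 0.40 for Nrg1, from -0.08 to 0.52 for Erbb3 and from -0.13 to 0.37 for Erbb4. Apart from Hbegf, Erbb2 and Erbb4 between stages, named above, no member's call changed; other causes were not tested. Bulk depth is unknown, and Egfr and Nrg1 after E11.5 lie under the filter.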
